A study of Mus musculus with 10 samples.

Results

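The tumour necrosis factor (TNF) and interleukin-1 (IL-1) cytokines and their receptors were followed in the mouse cochlea, with and without exposure to noise, in B6.CAST and 129X1/SvJ mice. The genes were Tnf, Tnfrsf1a, Tnfrsf1b, Tnfrsf12a, Il1b, Il1r1, Il1rn and Il4ra, and the members were all probe sets that the platform annotation assigned to 1 of these 8 symbols. There were 9 such probe sets among the 12488 of the table, for 7 of the 8 genes and of 8572 gene symbols in all. No probe set used here was named for Tnfrsf12a, the receptor for the TNF-like ligand TWEAK, so it has no value below.

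The 10 arrays held cochlear RNA of female mice aged 10 weeks, from dissected membranous labyrinth, with 8 mice used for each array and the arrays of a group described as biological replicates. There were 2 noise and 2 control arrays of B6.CAST, which carries a segment of CAST chromosome on a C57BL/6 background, and 3 noise and 3 control arrays of the inbred strain 129X1/SvJ. The exposure was a 10 kHz octave band of noise, played at 105 dB SPL over 1 h, and tissue was collected 6 h after it. Control mice had a sham exposure in the same chamber, so handling and confinement were shared by all groups. The strain names of 1 noise and 1 control array of 129X1/SvJ were spelled with a different character in the labels, and both were kept in that strain.

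TNF is made as a membrane protein that is cut free, and it acts through Tnfrsf1a, whose death domain can signal to NF-κB or to cell death, and Tnfrsf1b, which lacks that domain. IL-1β is made as an inactive precursor, and both it and the antagonist encoded by Il1rn bind Il1r1, but the antagonist does not start a signal. Il4ra is a subunit of the receptors for IL-4 and IL-13 and belongs to neither family, although it is a cytokine receptor too. In the inner ear these cytokines are made by resident macrophages and by fibrocytes of the lateral wall, and in other tissues they induce chemokines and adhesion molecules.

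The regions just upstream of 3 members were taken from RefSeq (GRCm38.p6), as the member with the largest mean change with noise over both strains (Tnfrsf1a) and the only members with a match to either motif searched (Il1r1 and Il1rn). Each shows the 250 bases before an annotated transcription start, 5′ to 3′ on the gene's own strand, in lower case with motif matches in capitals. Both Il1r1 and Il1rn have further annotated starts, and the one shown holds the match.
Tnfrsf1a, chr6:125349473-125349722, plus strand: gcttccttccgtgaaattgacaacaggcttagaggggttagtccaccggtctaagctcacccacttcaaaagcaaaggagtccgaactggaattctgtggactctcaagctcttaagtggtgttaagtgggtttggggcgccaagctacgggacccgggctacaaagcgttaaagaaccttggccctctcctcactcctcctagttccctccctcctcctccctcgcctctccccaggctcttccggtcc
Il1r1, chr1:40266336-40266585, plus strand: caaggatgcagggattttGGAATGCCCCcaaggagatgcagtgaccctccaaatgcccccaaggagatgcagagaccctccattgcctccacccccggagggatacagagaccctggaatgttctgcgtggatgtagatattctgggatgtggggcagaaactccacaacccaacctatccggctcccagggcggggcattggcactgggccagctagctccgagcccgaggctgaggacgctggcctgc
Il1rn, chr2:24336610-24336859, plus strand: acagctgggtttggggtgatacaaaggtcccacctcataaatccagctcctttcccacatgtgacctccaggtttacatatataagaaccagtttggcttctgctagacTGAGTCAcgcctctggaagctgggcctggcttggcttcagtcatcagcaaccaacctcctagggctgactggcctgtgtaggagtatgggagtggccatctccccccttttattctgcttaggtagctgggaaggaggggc
The motifs searched on both strands were the NF-κB consensus of 10 bases and the AP-1 motif TGANTCA, and no matches overlapped. Of the 8 members, 1 had an NF-κB match in any of its windows (Il1r1, 223 to 232 bases upstream, on the minus strand) and 1 had an AP-1 match (Il1rn, 135 to 141 bases upstream). Among all 32851 windows of the same length, some of the same gene, 7.25% held the NF-κB motif and 6.75% the AP-1 motif. These shares are by window, and the 8 members had 11 windows, so the counts by gene are not directly comparable. A match describes the letters only, and these windows are short.

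Values are signal intensities scaled array by array by the authors, and changes are on the log2(intensity + 16) scale after quantile normalization, which understates the change of dim genes. Arrays correlated at 0.955 to 0.979 within groups and at 0.940 to 0.981 between them. Noise array 1 of 129X1/SvJ had the lowest mean correlation with the others (0.948, against 0.965 to 0.972). For Gapdh, whose 3′ control signal over its 5′ one climbs as RNA is degraded or copied short, that ratio reached 6.94 on noise array 1 of B6.CAST and 29.2 on control array 2 of 129X1/SvJ. The other 8 arrays had 0.790 to 1.40. Cochlear markers were present: 14 of the 19 listed had a probe set, and all of these passed the filter on low values. They include Coch, a matrix gene of the spiral ligament with a signal of 12604 to 20801, and Gjb2, a gap junction gene. In pooled tissue, fewer cells of a type and less RNA per cell cannot be told apart.

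Both cytokine genes had a mean signal over the 10 arrays below the limit set for testing, and neither was shown to change with noise. Tnf gave 50.1 and 17.3 on the B6.CAST noise arrays, against 10.7 and 21.2 on the B6.CAST control arrays. The 129X1/SvJ arrays gave 13.4, 59.3 and 13.7 with noise, against 16.8, 13.5 and 16.3 in control mice. One noise array of each strain therefore stood above every control array, while the other 3 noise arrays lay within the range of the controls. Il1b gave 15.4 and 11.6 with noise, against 9.4 and 6.1 in control mice of B6.CAST. It gave 15.3, 10.9 and 11.6 with noise, against 4.5, 16.6 and 13.2 in control mice of 129X1/SvJ. Both groups of B6.CAST were apart for Il1b by a few intensity units, and those of 129X1/SvJ overlapped. With noise in B6.CAST, 15.6% of tested probe sets were higher without overlap.

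Neither cytokine was tested, since both lay among the 30% of probe sets with the lowest mean, whose limit was a signal of 42.9. For Tnf, the fitted change with noise was 0.55 ± 0.50 in B6.CAST and 0.23 ± 0.41 in 129X1/SvJ (SE). The 95% interval of the mean over both strains, -0.33 to 1.11, holds both no change and a rise of more than 1 on the log2 scale. Its change in B6.CAST was -0.04 when noise array 1, the one with the Gapdh ratio of 6.94, was left out, and 1.14 when noise array 2 was. For 129X1/SvJ, the change of Tnf was -0.21 without the second noise array. The fitted change of Il1b was 0.28 ± 0.26 in B6.CAST and -0.05 ± 0.21 in 129X1/SvJ. The 95% interval of its mean over both strains was -0.25 to 0.49, so a change of 1 on this scale lies outside it. The scale understates the change of dim genes, so the change in intensity may be larger than this interval shows.

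**Figure D1:**
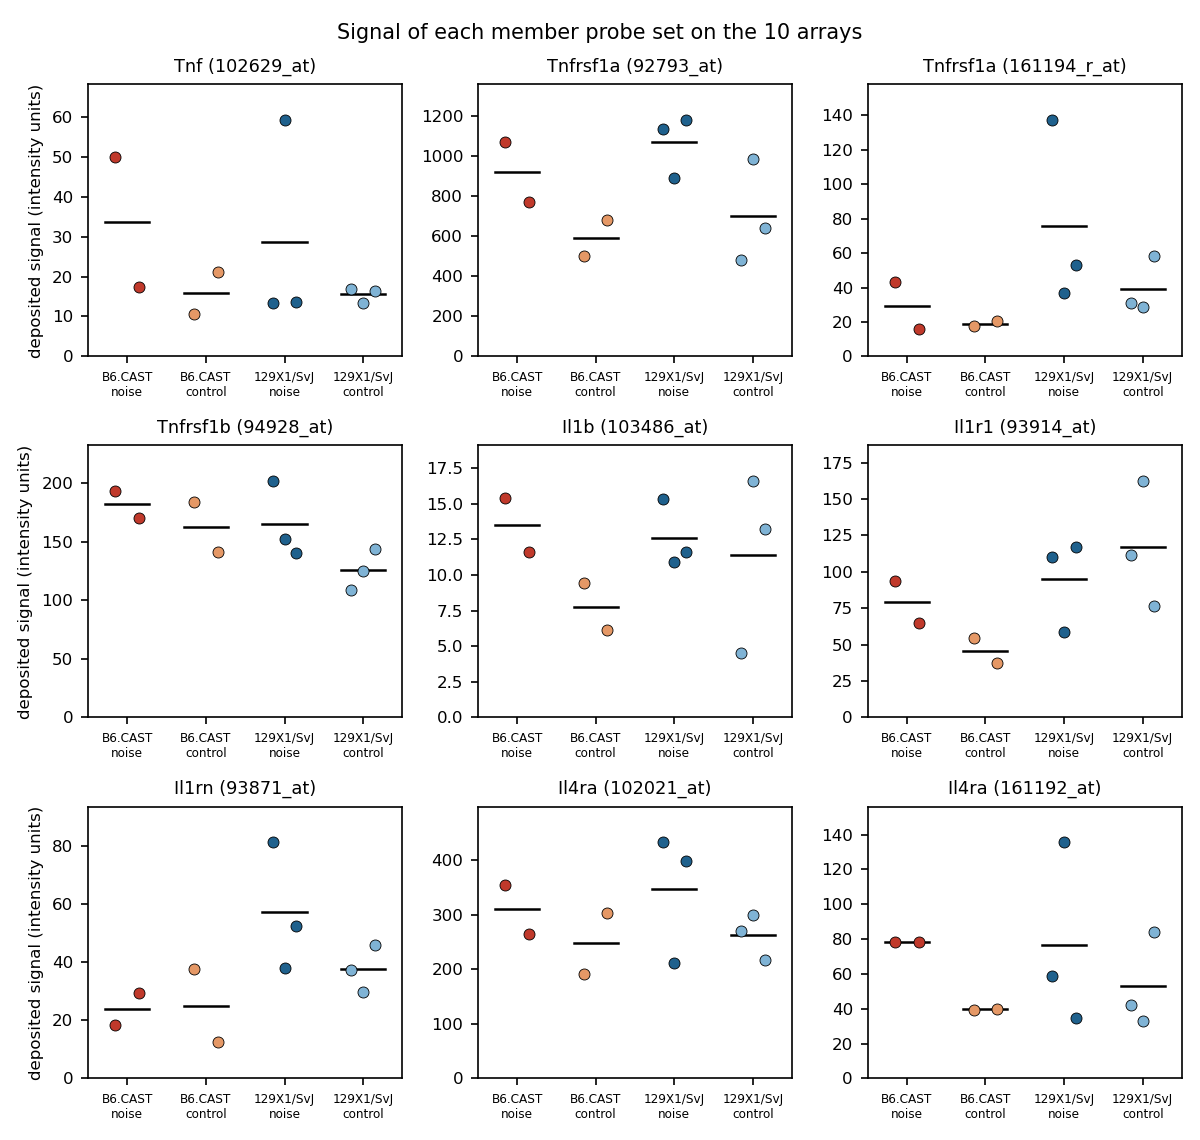
Deposited signal (intensity units, linear axes from 0) of the 9 probe sets on each array, in the groups B6.CAST noise, B6.CAST control, 129X1/SvJ noise and 129X1/SvJ control. Points are arrays and bars are group means. The tested probe set of Tnfrsf1a runs from 478.6 to 1180, with the highest arrays exposed to noise, and Il1b stays at or under 16.6 on every array.

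Il1rn, the gene of the IL-1 receptor antagonist, was dim as well and was not tested. It gave 18.5 and 29.4 on B6.CAST noise arrays, against 37.8 and 12.4 on control arrays of that strain. It gave 81.5, 38.2 and 52.4 in noise-exposed 129X1/SvJ mice, against 37.2, 29.7 and 45.9 in control mice of that strain. Noise and control arrays overlapped in both strains. Between the strains, both B6.CAST noise arrays lay below all noise arrays of 129X1/SvJ. Among tested probe sets, 13.9% were separated in this way and direction. The fitted difference was -0.69 ± 0.31 (B6.CAST minus 129X1/SvJ, 95% interval -1.37 to -0.01). Its unadjusted p was 0.048 in limma, and 10.6% of tested probe sets had one under 0.05 in this comparison.

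Neutrophils and macrophages express Il1rn and Tnfrsf1b, so their markers are given beside these genes. Of 12 neutrophil markers, 11 had a probe set, and their summed signal was 2386 and 2663 on B6.CAST noise arrays, against 12490 to 36405 on 129X1/SvJ noise arrays. Control arrays had 5982 and 19766 in B6.CAST, against 3573 to 21300 in 129X1/SvJ. None was at 0 on any array, and the lowest signal was 3.1 for Cxcr2, the receptor that guides neutrophils to chemokines. Of the 10 tested, 10 were higher with noise in 129X1/SvJ (median 0.85) and 0 in B6.CAST (median -1.92). For the difference of these effects 0 passed, and 9 had an unadjusted p under 0.05 in limma (175 of all 6506 genes). Between strains in noise-exposed mice, 0 were higher in B6.CAST. There, 9 had an unadjusted p under 0.05 (746 of all genes) and 1 passed as lower (41 of all genes). The first noise array of 129X1/SvJ held the highest neutrophil sum and the highest sum of the 8 lymphocyte markers with a probe set (920.3, against 221 to 543.4 on the other arrays). It also held the highest deposited signal of the 10 for Il1rn, Tnfrsf1b, the first Il4ra probe set and the dim probe set of Tnfrsf1a. After quantile normalization this no longer held for Tnfrsf1b, with a log2 value of 7.56 against 7.82 on noise array 1 of B6.CAST. Erythroid markers, 5 of 8 with a probe set, summed to 7103 and 10311 on B6.CAST noise arrays, against 22091 to 35895 on 129X1/SvJ noise arrays, and to 9898 and 24583 on B6.CAST control arrays, against 12963 to 32330 on 129X1/SvJ control arrays. Of these 5 erythroid markers, 0 were higher in B6.CAST than in 129X1/SvJ with noise, and 1 passed as lower in limma. The part of these cells in the values of the members was not tested. All 13 macrophage markers had a probe set, and their sum lay at 5034 and 5798 on B6.CAST noise arrays and at 4859 and 6540 on B6.CAST control arrays. In 129X1/SvJ it ranged from 4326 to 5583 with noise, against 2674 to 4806 in control mice. Both of these sums overlapped between noise and control arrays. Of the 9 macrophage markers tested, 7 were higher in the mean noise effect with a median of 0.18, and 1 passed. This was Cd14, the co-receptor for lipopolysaccharide, which rose by 0.86 ± 0.16 (adjusted p = 0.039 in limma). Over all 6506 genes, 30 passed as higher in that comparison. Between strains in control mice 1 passed, the protease gene Ctss, which was higher in B6.CAST by 1.01 ± 0.20 (adjusted p = 0.047 in limma). Over all genes, 36 passed as higher there. Neither call was followed under other processing or with arrays left out.

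**Figure D2:**
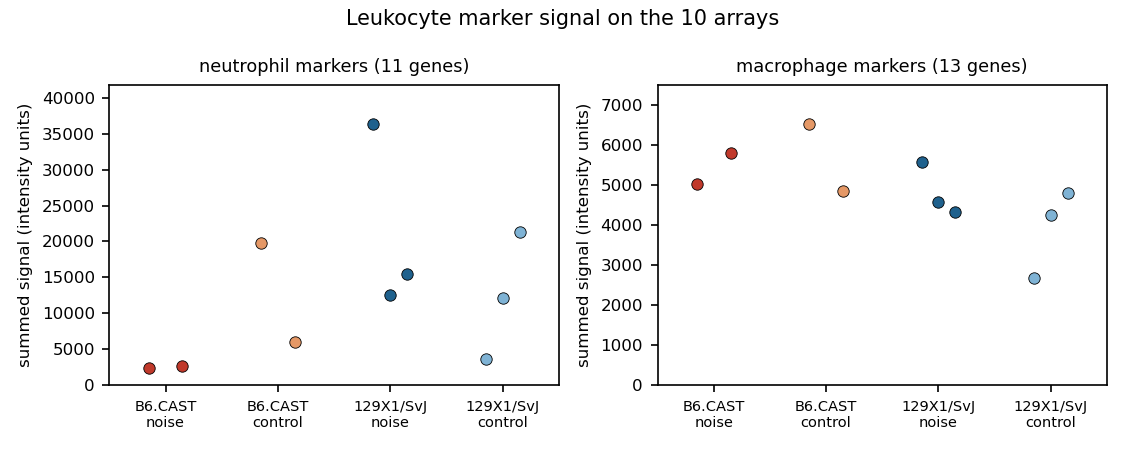
Summed signal (intensity units, linear axes from 0) of 11 neutrophil and 13 macrophage marker genes on each array, by group, with points as arrays. Both B6.CAST noise arrays have neutrophil sums of 2386 and 2663, below every other array, and the first 129X1/SvJ noise array has the highest, 36405.

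Tnfrsf1a, the TNF receptor with a death domain, had the largest mean change with noise of the members, and it did not pass the threshold. Its tested probe set gave 1068.2 and 769.9 on B6.CAST noise arrays, against 498.8 and 679.5 on B6.CAST control arrays. For 129X1/SvJ the values were 1135.7, 892.7 and 1180 with noise, against 478.6, 985.8 and 638.3 in control mice. The groups were separate in B6.CAST, as were 15.6% of all tested probe sets in this direction. In 129X1/SvJ 1 noise array lay below the highest control array, which was the one with the Gapdh ratio of 29.2. The change was 0.62 ± 0.31 in B6.CAST (SE, n = 2 and 2 arrays; adjusted p = 1.00 in limma) and 0.68 ± 0.25 in 129X1/SvJ (n = 3 and 3; adjusted p = 0.377). Averaged over both strains it was 0.65 ± 0.20, with a 95% interval of 0.22 to 1.08, an unadjusted p of 0.0069 and an adjusted p = 0.365 in limma. The change in B6.CAST was 0.40 without noise array 1, the one with the Gapdh ratio of 6.94, and that in 129X1/SvJ was 0.94 without control array 2 and 0.45 without control array 1.

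Of the 8695 tested probe sets, Tnfrsf1a stood at position 165 by the p of this mean effect. Its noise effect differed between the strains by -0.06 ± 0.39 (95% interval -0.92 to 0.81, adjusted p = 0.997 in limma). A difference in either direction within this interval is not excluded. Strain differences of its level were -0.25 ± 0.28 with noise and -0.19 ± 0.28 in control mice, and neither passed. Without control array 2 of 129X1/SvJ, the mean noise effect was 0.78 with an adjusted p of 0.174 in limma, the smallest of any member over all alternatives (0.174 to 1.00). The second probe set of the gene, whose suffix marks a relaxed probe choice, was too dim to be tested. It gave 43.4 and 15.6 with noise, against 17.7 and 20.3 in control mice of B6.CAST. It gave 137.4, 36.7 and 52.9 with noise, against 31.2, 28.6 and 58.4 in control mice of 129X1/SvJ, and both pairs of groups overlapped. In control mice its B6.CAST arrays lay below those of 129X1/SvJ, with a fitted strain difference of -0.64 ± 0.44. Among tested probe sets, 15.4% were separated in this way and direction.

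Tnfrsf1b, the TNF receptor of leukocytes and endothelium, did not pass in any comparison. It gave 193.4 and 170.2 with noise, against 184 and 140.9 in control mice of B6.CAST, and 201.7, 151.9 and 140.5 with noise, against 108.4, 124.8 and 143.6 in control mice of 129X1/SvJ. All neighbours in the order of the group means overlapped. The change with noise was 0.17 ± 0.26 in B6.CAST and 0.20 ± 0.21 in 129X1/SvJ. Its mean effect of 0.19 had a 95% interval of -0.18 to 0.55, so a change of 1 on the log2 scale lies outside it, and was 0.10 without noise array 1 of B6.CAST.

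**Figure D3:**
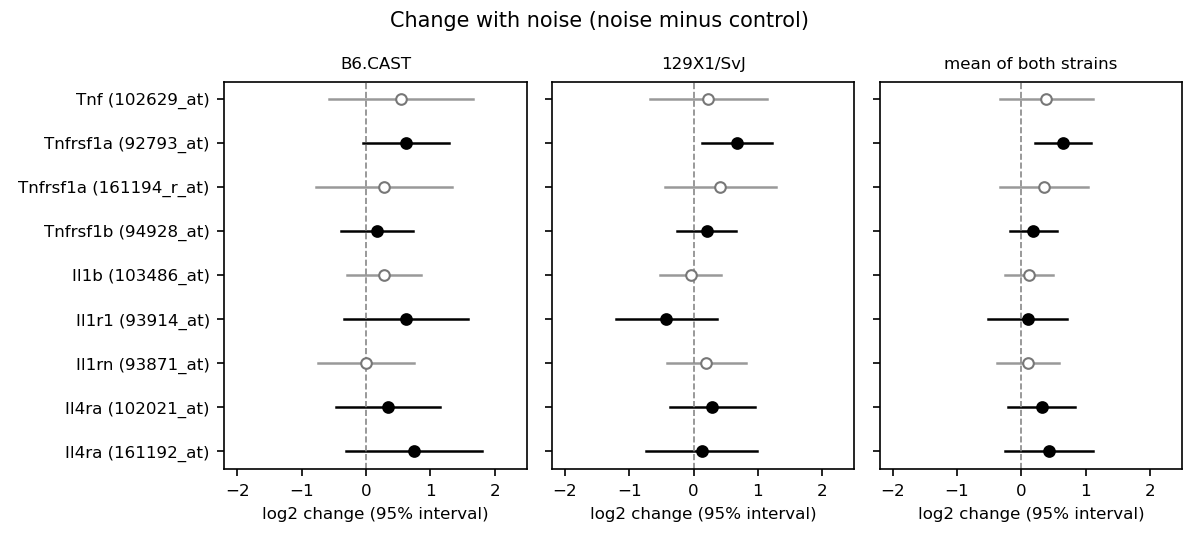
Change with noise (noise minus control, log2 scale) of each probe set in B6.CAST, in 129X1/SvJ and as the mean of both, with 95% intervals from the fit. Filled points were tested and open grey points were too dim to be tested. The interval of the tested probe set of Tnfrsf1a in the mean of both strains runs from 0.22 to 1.08.

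Il1r1, the signalling receptor of IL-1, had the largest strain difference of the tested members, and it did not pass the threshold. It gave 93.7 and 65 on B6.CAST noise arrays, against 54.3 and 37.4 on B6.CAST control arrays. On 129X1/SvJ arrays it gave 110, 58.7 and 117.4 with noise, against 111.5, 162.5 and 76.6 in control mice. The control arrays of B6.CAST lay below every other array, and the groups of 129X1/SvJ overlapped. Of all tested probe sets, 15.4% were lower without overlap in B6.CAST among control mice, and 15.6% were higher with noise in B6.CAST. In control mice the difference was -1.06 ± 0.40 (B6.CAST minus 129X1/SvJ, unadjusted p = 0.021 and adjusted p = 0.345 in limma). In noise-exposed mice it was -0.02 ± 0.40. The control difference was -0.78 without control array 2 of 129X1/SvJ, the one with the highest Gapdh ratio and the highest Il1r1 signal.

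The fitted noise effect on Il1r1 was 0.62 ± 0.44 in B6.CAST and -0.42 ± 0.36 in 129X1/SvJ. The difference of these effects was 1.05 ± 0.56 (95% interval -0.19 to 2.28) and did not pass (unadjusted p = 0.089 and adjusted p = 0.997 in limma). The noise effect in B6.CAST was 0.29 without noise array 1 and 0.96 without noise array 2, and that in 129X1/SvJ was -0.15 without control array 2 and -0.71 without control array 3. The difference was 0.71 without noise array 1 of B6.CAST, and 0.44 when the arrays with Gapdh ratios of 6.94 and 29.2 were both left out.

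Il4ra was measured with 2 tested probe sets, which disagreed on single arrays. The first gave 354.6 and 264.5 with noise, against 191.4 and 303.5 in control mice of B6.CAST. It gave 433.4, 210.6 and 398.6 with noise, against 271, 298.8 and 216.6 in control mice of 129X1/SvJ. Noise and control groups overlapped in both strains. The second gave 78.3 and 78.4 with noise, against 39.3 and 40.1 in control mice of B6.CAST. The values in 129X1/SvJ were 58.8, 135.8 and 34.7 with noise, against 42.1, 33.2 and 84.2 in control mice. Its groups were thus separate in B6.CAST, as were 15.6% of all tested probe sets in this direction, and overlapped in 129X1/SvJ. The second noise array of 129X1/SvJ was the lowest of its group for the first probe set and the highest for the second. The mean noise effect was 0.32 ± 0.24 for the first (adjusted p = 0.792 in limma) and 0.44 ± 0.31 for the second (adjusted p = 0.787). These were 0.13 for the first without control array 1 of B6.CAST, 0.50 for the first without control array 2 of that strain, and 0.21 for the second without noise array 2 of 129X1/SvJ.

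**Figure D4:**
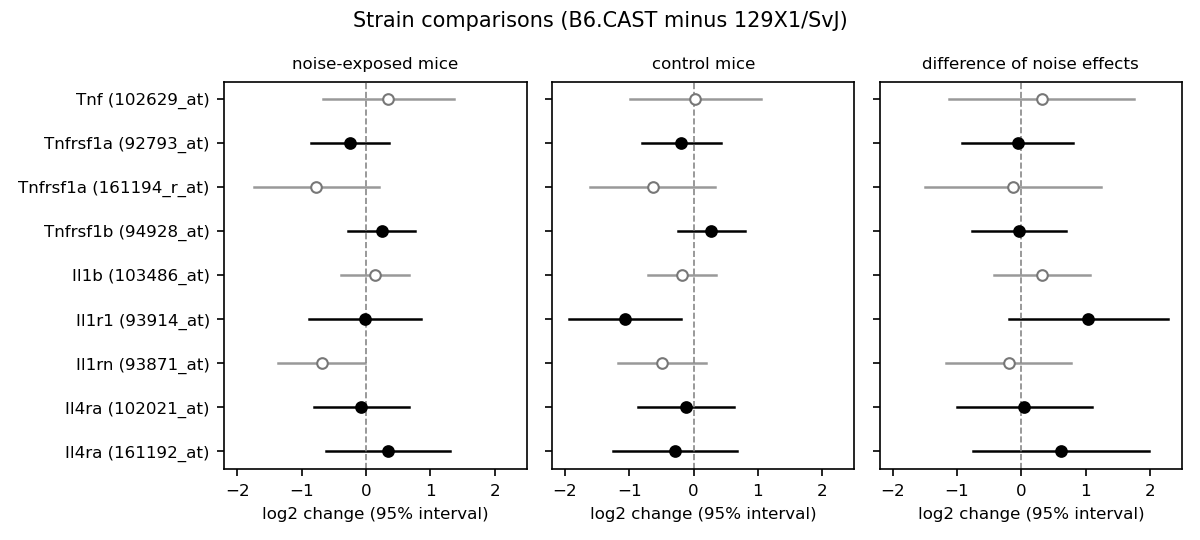
Strain comparisons (B6.CAST minus 129X1/SvJ, log2 scale) of each probe set in noise-exposed mice, in control mice and for the noise effect itself, with 95% intervals from the fit. Filled points were tested and open grey points were not. Il1r1 in control mice, at -1.06, has the interval farthest from 0 among the tested probe sets.

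Across the members, limma called none of the 5 tested probe sets in any of the 6 comparisons. The share called among all 8695 was 0.506% for noise in 129X1/SvJ, 0.046% for noise in B6.CAST, 0.46% for the mean noise effect, 0% for the difference of noise effects, 1.45% between strains in noise-exposed mice and 0.92% in control mice. At an unadjusted p under 0.05 there was 1 member for noise in 129X1/SvJ and 1 for the mean effect, both Tnfrsf1a, and 1 between strains in control mice, Il1r1, and 0 in the other comparisons. Among all tested probe sets these shares were 11.5%, 7.63% and 11.1%, and for the comparisons without a member they were 2.1% for noise in B6.CAST, 2.97% for the difference of noise effects and 10.6% between strains in noise-exposed mice. The median change of the tested members with noise was 0.62 in B6.CAST, 0.20 in 129X1/SvJ and 0.32 in the mean effect, where the medians of all tested probe sets were 0.01, -0.04 and -0.02. In B6.CAST, 3 of the 5 were higher with noise without overlap (Tnfrsf1a, Il1r1 and the second Il4ra probe set), as were 15.6% of all tested probe sets, and 0 of 5 were lower, as were 13% of all. For noise in 129X1/SvJ, 0 of 5 were separate, where 7.71% of all were higher and 8.1% lower. Between strains in noise-exposed mice, 0 of 5 were separate, where 11.4% of all were higher and 13.9% lower in B6.CAST. In control mice 1 of 5, Il1r1, was lower in B6.CAST without overlap, as were 15.4% of all, and 0 were higher, as were 13.7% of all.

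In the order of group means, 129X1/SvJ noise was highest for the tested probe set of Tnfrsf1a (1069 ± 155, SD), followed by B6.CAST noise (919 ± 211), 129X1/SvJ control (701 ± 259) and B6.CAST control (589 ± 128). For Il1r1 the order was 129X1/SvJ control, 129X1/SvJ noise, B6.CAST noise and B6.CAST control. B6.CAST noise was highest for Tnf, Il1b, Tnfrsf1b and the second Il4ra probe set, and 129X1/SvJ noise for Il1rn, the dim Tnfrsf1a probe set and the first Il4ra probe set. Neighbours in these orders overlapped for all 9 probe sets, with the exception of B6.CAST noise and B6.CAST control for Il1r1.

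The genes with the array pattern most like that of Tnfrsf1a, by Pearson correlation of normalized log2 values over the 10 arrays, were Fgfr1, a fibroblast growth factor receptor (r = 0.95), the glutamine synthetase pseudogene Glns-ps1 (0.93) and Plxna2, a semaphorin receptor (0.93). These points share the groups and the arrays of differing RNA quality. The probe set of Fgfr1 may match related sequences, and that of Glns-ps1 may share signal with the parent gene. Their mean noise effects were 0.49 ± 0.13 for Fgfr1, 0.69 ± 0.25 for Plxna2 and 0.52 ± 0.23 for Glns-ps1, and none passed.

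The partners and signalling proteins of these receptors were also followed, with the brightest probe set of each gene. Of 24 genes of TNF signalling, 16 were tested, 10 were higher in the mean noise effect and 0 passed in limma in any comparison, with 2 at an unadjusted p under 0.05 in the mean effect and a median of 0.08. Over all 6506 genes tested, 520 were at an unadjusted p under 0.05 in the mean effect, with a median of -0.02. Nfkbia, the inhibitor of NF-κB that is itself an NF-κB target, gave 2545.2 and 2376.5 with noise, against 1945.3 and 1763.8 in control mice of B6.CAST. In 129X1/SvJ its values were 5426.2, 3267.8 and 3049 with noise, against 2033.7, 2011.5 and 1569.8 in control mice. Noise and control arrays were separate in both strains. With each strain taken alone, 15.6% of tested probe sets were separate as higher in B6.CAST and 7.71% in 129X1/SvJ. Its change was 0.41 ± 0.25 in B6.CAST and 1.05 ± 0.20 in 129X1/SvJ, where the adjusted p of 0.0503 in limma lay just above the threshold. In 129X1/SvJ it passed with the replicate block (adjusted p = 0.035 in limma), with a pseudocount of 64 (0.048) and without the third noise array (0.041). It passed in no other alternative for that comparison, and its change there was 0.79 without the first noise array. Birc3, which ubiquitinates proteins of the TNF receptor complex, had a mean effect of 0.39 ± 0.17.

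Of 23 further IL-1 family and signalling genes, 9 were tested, 4 were higher in the mean noise effect and 0 passed in limma in any comparison, with 0 at an unadjusted p under 0.05 in the mean effect and a median of -0.10. The adaptor Myd88 had a mean effect of 0.37 ± 0.18, which was 0.17 without noise array 1 and 0.58 without noise array 2 of B6.CAST, and the cytokine Il18 one of -0.52 ± 0.24. Of 14 genes of IL-4 and IL-13 signalling, 9 were tested and 5 were higher, 0 passed in limma in any comparison and 4 had an unadjusted p under 0.05 in the mean effect, with a median of 0.28. For this and the other lists, the background is the 520 of all 6506 genes tested that had such a p. Irs2, a docking protein of the IL-4 and insulin receptors, had a mean effect of 1.01 ± 0.22 (adjusted p = 0.113 in limma). This effect was 0.74 without noise array 1 of B6.CAST, the one with the Gapdh ratio of 6.94, and 1.29 without noise array 2. Il13ra1, which pairs with Il4ra, gave 109.2 and 109 with noise, against 72.1 and 83 in control mice of B6.CAST, and 139.6 to 186.9 with noise, against 67.3 to 89.7 in control mice of 129X1/SvJ. Its arrays were separate in both strains, and its mean effect of 0.57 ± 0.18 did not pass (adjusted p = 0.374 in limma). Among tested probe sets, 15.6% were separate as higher in B6.CAST and 7.71% in 129X1/SvJ, and the share separate in both was not counted. Of 29 other ligands and receptors of the TNF superfamily, 10 were tested, 4 were higher and 0 passed in limma in any comparison, with 1 at an unadjusted p under 0.05 in the mean effect and a median of -0.15. Tnfrsf18, a costimulatory receptor of T cells, had a mean effect of 0.54 ± 0.25 (0.35 without control array 2 of B6.CAST) and the death receptor Tnfrsf21 one of 0.25 ± 0.11.

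Genes that TNF and IL-1 are known to induce gave the only calls among these lists. Of 29, 16 were tested and 12 were higher in the mean noise effect, 4 passed as higher and 0 as lower in limma, and the median was 0.34. Over all 6506 genes tested, 45.8% were higher in that comparison, 30 passed as higher and the median was -0.02, and 0.414% of all probe sets passed as higher. The 4 were the chemokines Ccl2 and Ccl7, which attract monocytes, Cxcl1, which attracts neutrophils, and Bcl3, an atypical IκB protein that acts in the nucleus. Ccl2 gave 653.7 and 268.9 with noise, against 6 and 32.1 in control mice of B6.CAST, and 524.3 to 1122.3 with noise, against 22.2 to 41.5 in control mice of 129X1/SvJ. All its noise arrays lay above all control arrays, and it rose by 3.87 ± 0.33 in the mean effect (adjusted p = 1.7e-04 in limma). Bcl3 gave 255.4 and 199.7 with noise, against 40.5 and 29.7 in control mice of B6.CAST, and 279.9 to 497.6 with noise, against 36.3 to 164.8 in control mice of 129X1/SvJ. It rose by 2.22 ± 0.34 in the mean effect (adjusted p = 0.012 in limma). This was 2.10 without noise array 1, 2.24 without control array 1 and 2.19 without control array 2 of B6.CAST. It was 1.96 without the arrays of Gapdh ratios 6.94 and 29.2, and the call of Bcl3 was lost in each of these fits.

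By strain, 1 gene of this list passed with noise in B6.CAST (Ccl2) and 3 passed in 129X1/SvJ (Ccl2, Ccl7 and Cxcl1), all higher, where the shares of all probe sets that passed as higher were 0.046% and 0.46%. The call of Ccl7 in 129X1/SvJ was lost without control array 1 (adjusted p = 0.069 in limma) or control array 2 (0.067) of that strain. In this list 0 passed for the difference of the noise effects, where 1 had an unadjusted p under 0.05. The count of 4 in the mean effect was 2 without noise array 1 or control array 1 of B6.CAST, and it was 1, Ccl2, when the arrays with Gapdh ratios of 6.94 and 29.2 were both left out. The call of Ccl2 with noise in B6.CAST was lost in most alternatives, and over all of them its adjusted p in limma ranged from 0.013 to 1.00. Many stimuli other than these cytokines also induce genes of this list, and it was chosen with results of these data known, so its count is not independent evidence of its direction.

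**Figure D5:**
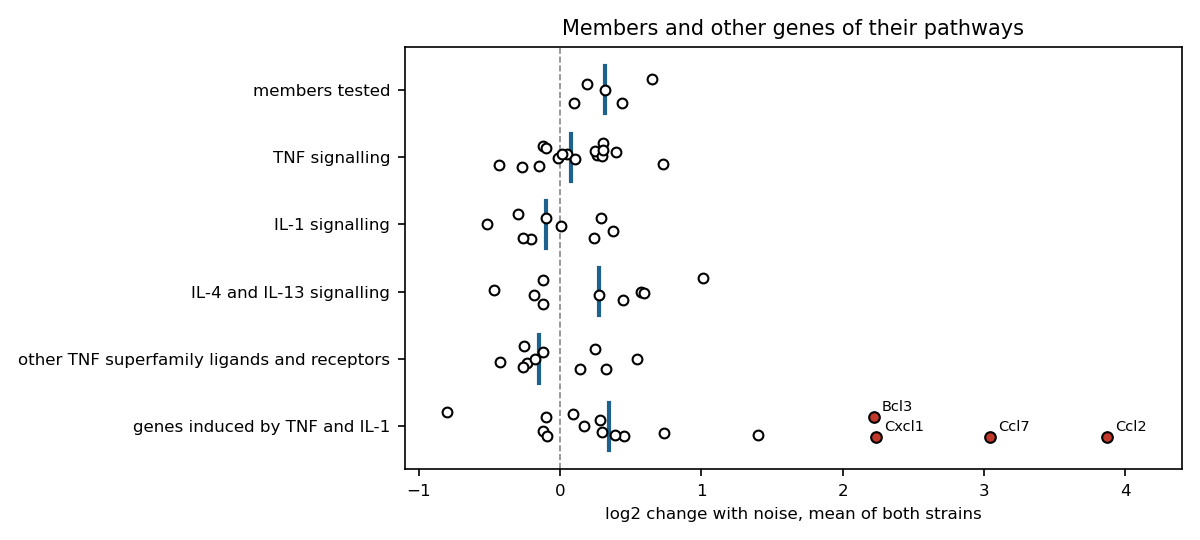
Change with noise as the mean of both strains (log2 scale) of the tested members and of the tested genes of 5 pathway lists. Filled red points passed the threshold, open points did not, and vertical lines are medians. The 5 members lie between 0.10 and 0.65, and the called genes Bcl3, Cxcl1, Ccl7 and Ccl2 lie between 2.22 and 3.87.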

How the data were processed

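The authors deposited linear signal intensities per probe set, scaled array by array, as the values show: the mean without the lowest and highest 2% was 500.3 on each array. No source used here names the software, detection flags or genome build. Of the 12488 probe sets, 66 are controls and 10855 have 1 gene symbol in the platform annotation, 10839 of these found in RefSeq by identifier.

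From these intensities, log2(intensity + 16) was quantile normalized, control probe sets and the 30% with the lowest mean were left out, and 4 group means were fitted to the 10 arrays with limma 3.58.1 (R 4.3.3, variance trend). Benjamini-Hochberg adjustment ran over all 8695 probe sets left, with a threshold of 0.05. Errors are SEs of that fit. For members below the filter, changes, SEs and intervals come from the same model fitted to all probe sets other than controls. P-values measure the spread between pools of animals, and the number of arrays limits the precision. The fit was run on simulated data with independent noise. These held no array-wide differences such as those in the Gapdh ratio, so that run does not cover them. Signed strain comparisons are B6.CAST minus 129X1/SvJ.

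The 8 members and the gene lists were chosen with earlier results of these data known. Named genes are all members, up to 6 called genes of each list (with none, the 2 of smallest p in the mean noise effect), and the 3 genes most like a called member or, with none, the member of smallest p. The brightest probe set stood for a listed gene. Same-numbered arrays did not deviate together (correlations within strains -0.39 to -0.15), so the numbers were not used as pairs. Alternatives covered scaling, pseudocount, filter, variance trend, arrays in the fit, the replicate number and each array left out.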

Additional observations from a re-analysis of the deposited data

How the results depend on the processing

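No alternative and no left-out array called a member probe set in any of the 6 comparisons, and the smallest adjusted p of a tested member over all of them was 0.174 (limma). Alternatives on pathway genes, the crossed pairing and the fit without the 2 arrays of high Gapdh ratio were chosen after seeing the data. The cause of the shifts below was not tested.

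Counts of all called probe sets moved more. For noise in B6.CAST, the count of 4 was 2 with a pseudocount of 64, 1 with no filter on low values, 0 with no variance trend, 0 with only the arrays compared, 2 with the replicate block and 0 without the high Gapdh arrays, and 0 to 5 with 1 array left out. Same-numbered B6.CAST arrays deviated against each other, and with crossed numbers as the block the count was 2. For noise in 129X1/SvJ, 44 became 22 without the high Gapdh arrays and 22 to 48 with 1 array left out. For the mean noise effect, 40 became 10 without the high Gapdh arrays and 18 to 47 with 1 left out. Between strains in noise-exposed mice, 126 became 55 with only the arrays compared, 44 with the replicate block, 29 without the high Gapdh arrays and 26 to 125 with 1 left out. In control mice, 80 became 151, 34, 36 and 23 to 129 under the same changes. The difference of noise effects gave 0 throughout. In the mean noise effect, the genes induced by TNF and IL-1 gave 1 call without the high Gapdh arrays and 2 to 5 with 1 left out. With 1 left out, TNF signalling gave 0 to 1 (Nfkbia, without noise array 1 of 129X1/SvJ) and IL-4 and IL-13 signalling 0 to 1 (Irs2).

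The replicate block left the mean noise effect on Tnfrsf1a at 0.65 (adjusted p = 0.638) and changed no call of a member. It added calls of Nfkbia and Bcl3 with noise in 129X1/SvJ and lost that of Ccl2 in B6.CAST.

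Some uncalled member changes turned sign. Without the high Gapdh arrays, the noise effect on the second Il4ra probe set in 129X1/SvJ was -0.034, that on Tnfrsf1b in B6.CAST -0.0054, the difference of noise effects for the first Il4ra probe set -0.31 and the strain difference of Tnfrsf1a in control mice 0.068. Without quantile normalization, the difference of noise effects for the first Il4ra probe set was -0.011. With 1 array left out, the difference of noise effects ran from -0.33 to 0.42 for the first Il4ra probe set, from -0.31 to 0.17 for Tnfrsf1a and from -0.21 to 0.14 for Tnfrsf1b. The mean noise effect on Il1r1 ran from -0.066 to 0.27, and the noise effect in 129X1/SvJ on the second Il4ra probe set from -0.33 to 0.36. In B6.CAST the noise effect ran from -0.034 to 0.71 for the first Il4ra probe set and from -0.0053 to 0.35 for Tnfrsf1b. The strain difference in noise-exposed mice ran from -0.35 to 0.32 for Il1r1 and from -0.38 to 0.19 for the first Il4ra probe set. In control mice it ran from -0.49 to 0.25 for the first Il4ra probe set and from -0.42 to 0.069 for Tnfrsf1a. Where a left-out array leaves 1 in a group, that array is assumed to vary like the others.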
